A study of Mus musculus with 2 samples.

Results

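The Hes and Hey genes encode basic helix-loop-helix repressors, most of which cells switch on when a Notch receptor is activated. Nrarp, Numb and Numbl encode proteins that dampen Notch signalling. 9 genes of these kinds were listed by symbol, and 7 of them are described here from deposited counts of 16190 Ensembl genes: Hes1, Hes6, Hey1, Heyl, Nrarp, Numb and Numbl. Hes5 and Hey2 were not analysed here. The cells are labelled as satellite cells, the stem cells of skeletal muscle, and came from the tibialis anterior muscle of C57BL/6 mice. 1 RNA library was labelled Cipc-scko, with Cipc deleted in satellite cells as the series title states it, and 1 was labelled Cipc-flox/flox, in which the Cipc alleles are floxed. The sample titles give the genotypes as Cipc-/- and Cipc+/+. The Cre driver, the age and sex of the mice, the number of mice behind a library and any time in culture are unstated in the sources used here. Cipc encodes CLOCK-interacting pacemaker, a repressor within the circadian clock.

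When a ligand on a neighbouring cell binds a Notch receptor, proteases free the receptor's intracellular domain. The domain enters the nucleus and joins the DNA-binding protein RBPJ and Mastermind co-activators to turn on target genes, among them Hes1, Hey1, Heyl and Nrarp. In mouse muscle, Notch activity is known to hold satellite cells quiescent and to oppose differentiation, and loss of Hey1 together with Heyl is known to deplete quiescent satellite cells.

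The libraries held 16830168 counts in Cipc-scko, against 16145870 counts in Cipc-flox/flox. Cipc had 594 counts in Cipc-scko, against 1907 counts in Cipc-flox/flox. The log2 ratio between them was -1.61 (95% counting interval -1.74 to -1.47). Sex-linked RNA also separated the libraries: Xist had 4 counts in Cipc-scko, against 3898 counts in Cipc-flox/flox, and the Y-linked Ddx3y had 511 counts in Cipc-scko, against 0 counts in Cipc-flox/flox. Genotype and this difference cannot be told apart in any value below. With a single library for each genotype there was no replicate error and no test between genotypes. All intervals cover counting error only, and every difference is one between these libraries.

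Levels are given in CPM, counts relative to library size, which was scaled by the trimmed mean of M-values (TMM). A gene was called higher or lower in Cipc-scko when it differed by at least 2-fold and the counting interval of its ratio excluded equality. By that rule 4 of the 7 members were higher and 1 was lower, against 21.2% higher, 15.9% lower and 37.2% called either way among the 12874 genes past the filter on low counts. The higher genes were Heyl, Numbl, Hes6 and Nrarp, the lower gene was Hey1, and Hes1 and Numb were not called. All 7 members passed that filter. The median log2 ratio, with Cipc-scko on top, was 1.36 over the 7 members and 0.01 over all genes past the filter. In bulk RNA, a different number of cells of a type and a different amount of RNA per cell cannot be told apart.

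**Figure D1:**
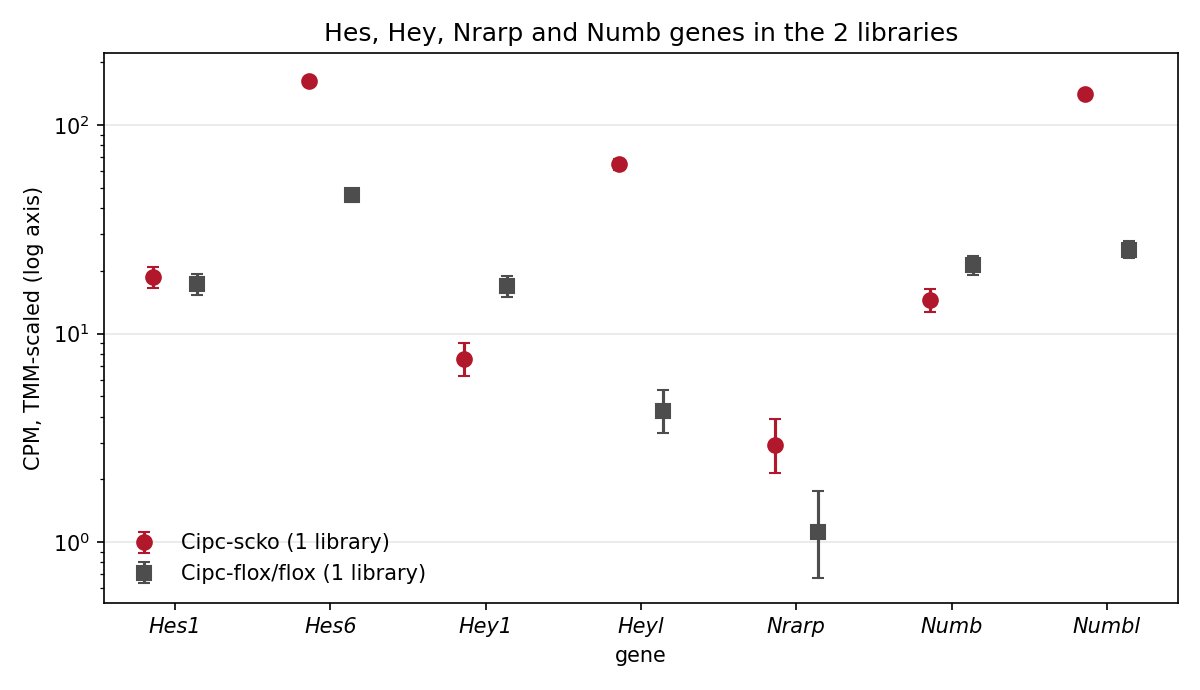
CPM (TMM-scaled, log axis) of the 7 genes, with Cipc-scko as red circles and Cipc-flox/flox as grey squares, 1 library each. Bars are exact Poisson 95% intervals of the counts, and those of Hes1 overlap between the libraries. Heyl shows the widest gap, at 65.0 CPM in Cipc-scko, against 4.25 CPM in Cipc-flox/flox.

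Of the Hes genes, Hes1 was not called and Hes6 was higher in Cipc-scko. Hes1, the general Notch-induced repressor, lies on chromosome 16 (GRCm38 30064384 to 30067796). It had 299 counts in Cipc-scko, against 292 counts in Cipc-flox/flox, or 18.6 CPM and 17.3 CPM. Its log2 ratio was 0.11 with an interval of -0.13 to 0.35, so a difference of more than 1.27-fold upwards lay outside counting error. The sign of this small ratio turned with scaling by total counts (-0.03).

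Hes6 encodes a family member known in the mouse to bind HES1 and relieve its repression, and to rise as precursor cells differentiate. The gene lies on the minus strand of chromosome 1 (91411483 to 91414038). It had 2602 counts in Cipc-scko, against 782 counts in Cipc-flox/flox, or 162 CPM and 46.2 CPM. Hes6 was thus 3.51-fold higher in Cipc-scko (3.24 to 3.80), and 13.7% of filtered genes had as high a ratio or a higher one. Both of the libraries had more counts of Hes6 than of any other member.

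RefSeq promoter windows on GRCm38.p6, from 250 bases before a gene start to 50 after it, were held for 4 of the 7 members: Hes6, Nrarp, Numb and Numbl. Hes6 (both starts), Nrarp and Numbl are shown because all of these genes were called higher in Cipc-scko. Capitals mark matches to the E-box CANNTG, the general site of helix-loop-helix activators such as MYOD1, searched on both strands.
Hes6, first start, chr1:91413989-91414288, minus strand: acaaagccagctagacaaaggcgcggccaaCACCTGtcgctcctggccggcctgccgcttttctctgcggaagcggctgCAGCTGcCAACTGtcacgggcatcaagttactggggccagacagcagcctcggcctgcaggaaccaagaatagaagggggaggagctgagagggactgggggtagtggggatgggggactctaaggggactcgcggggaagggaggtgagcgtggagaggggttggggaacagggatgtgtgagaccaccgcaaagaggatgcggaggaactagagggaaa
Hes6, second start, chr1:91413173-91413472, minus strand: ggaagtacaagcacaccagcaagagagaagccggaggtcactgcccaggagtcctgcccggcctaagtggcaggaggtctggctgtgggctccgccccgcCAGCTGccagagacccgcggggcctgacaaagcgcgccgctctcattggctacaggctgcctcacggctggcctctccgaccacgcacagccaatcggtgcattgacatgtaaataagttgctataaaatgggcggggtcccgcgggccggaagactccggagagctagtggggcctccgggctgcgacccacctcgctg
Nrarp, chr2:25180508-25180807, plus strand: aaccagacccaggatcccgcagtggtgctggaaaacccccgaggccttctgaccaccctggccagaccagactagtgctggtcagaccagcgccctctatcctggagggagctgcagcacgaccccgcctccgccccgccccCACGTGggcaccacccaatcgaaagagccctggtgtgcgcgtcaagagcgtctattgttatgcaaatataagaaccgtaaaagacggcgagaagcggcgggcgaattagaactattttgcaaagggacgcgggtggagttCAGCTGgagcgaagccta
Numbl, chr7:27258511-27258810, plus strand: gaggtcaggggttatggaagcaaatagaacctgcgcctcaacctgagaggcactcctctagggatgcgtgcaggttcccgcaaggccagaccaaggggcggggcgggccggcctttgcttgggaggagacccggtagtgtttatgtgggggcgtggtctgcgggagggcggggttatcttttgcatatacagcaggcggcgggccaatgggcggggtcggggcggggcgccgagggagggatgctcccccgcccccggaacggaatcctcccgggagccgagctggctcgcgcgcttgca
The first Hes6 window held 3 E-boxes, which began 220, 171 and 164 bases before the start, and the second held 1, beginning 150 bases before. Nrarp had 2 and Numbl had 0, while the 3 windows of Numb, not printed since Numb was not called, had 0, 2 and 3. Of 32851 windows of this length, 72.3% had at least 1 such match and 17.6% had at least 3. The letters CAGCTG, a subset of the E-box chosen after the windows were seen, occurred in both Hes6 windows and in the Nrarp window. They occurred in no Numbl or Numb window, and in 16.3% of all windows. The RBPJ letters TGGGAA or TGAGAA, again on both strands, matched in none of the 4 windows shown, in 1 Numb window, and in 40.4% of all. The N-box CACNAG, bound by HES proteins, occurred in 2 places in the second Hes6 window and in 2 places in the Nrarp window. It also occurred in 1 place in 1 Numb window, and 42.5% of all windows held one. A match of letters is a description and not a bound site.

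The Hey genes went opposite ways. Heyl, a Notch target of satellite cells and of the muscle layer of vessels, lies on chromosome 4 (123233556 to 123249875). It had 1044 counts in Cipc-scko, against 72 counts in Cipc-flox/flox. These are 65.0 CPM and 4.25 CPM, a 15.2-fold higher level in Cipc-scko (log2 ratio 3.92, 3.59 to 4.30), and 6.98% of filtered genes had as high a ratio or a higher one. Hey1, its relative and likewise a Notch target in satellite cells, lies on the minus strand of chromosome 3 (8663359 to 8667256). It had 121 counts in Cipc-scko, against 285 counts in Cipc-flox/flox, or 7.54 CPM and 16.8 CPM. Hey1 was 2.23-fold lower in Cipc-scko, with an interval of 1.80 to 2.79 that includes values under the 2-fold limit. The call of Hey1 ended under 3 alternatives (a fold limit of 4, FPKM with a pseudocount of 1, and an assumed variation between animals), while its sign held in all 13.

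Nrarp encodes a small ankyrin-repeat protein that Notch induces and that binds the receptor's intracellular domain to limit its action. The single-exon gene lies on chromosome 2 (25180758 to 25183339). It had 47 counts in Cipc-scko, against 19 counts in Cipc-flox/flox, or 2.93 CPM and 1.12 CPM, the lowest count of the members in each library. The log2 ratio was 1.36, with a wide interval of 0.59 to 2.23, so the 2-fold call rests on few counts. The antisense gene Gm38287 overlaps Nrarp, and without a stated strand setting reads of the pair cannot be told apart. The call of Nrarp ended under the same 3 alternatives as that of Hey1, and a filter of 5 CPM left Nrarp out.

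Of the Numb genes, Numb was not called and Numbl was higher. Numb encodes an endocytic adaptor that removes Notch from the membrane and is known to pass unequally to the daughters of dividing satellite cells. The gene lies on the minus strand of chromosome 12 (83794034 to 83921934). It had 232 counts in Cipc-scko, against 360 counts in Cipc-flox/flox, or 14.5 CPM and 21.3 CPM. The log2 ratio of -0.56 (-0.80 to -0.32) excluded equality but did not reach 2-fold. Numbl, the close relative of Numb and studied mostly in neural precursors of the mouse, lies on chromosome 7 (27258433 to 27282144). It had 2277 counts in Cipc-scko, against 428 counts in Cipc-flox/flox. These are 142 CPM and 25.3 CPM, a 5.60-fold higher level in Cipc-scko (5.06 to 6.23). Other annotated genes overlap the spans of Numb (Gm47748, Gm3791 and Gm46367) and of Numbl (Gm15570 and Gm44641), and sharing of reads with them was not tested. No other GENCODE gene matched the longest coding transcript of a member at 95% identity over 80% of the shorter transcript.

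**Figure D2:**
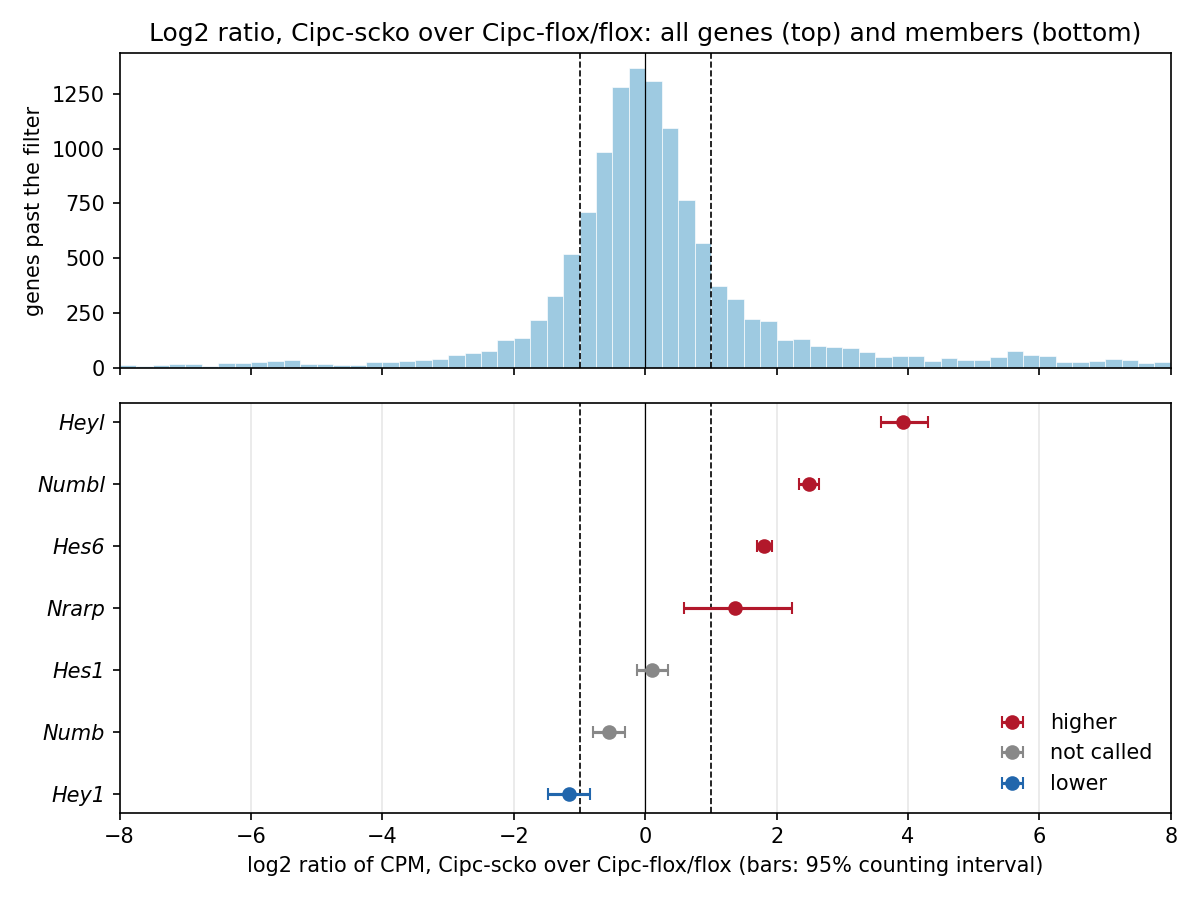
Top, histogram of the log2 ratio of CPM, Cipc-scko over Cipc-flox/flox, for genes past the filter, with 306 genes beyond 8 in either direction not drawn. Bottom, the 7 members with 95% counting intervals, coloured by call, with dashed lines at 2-fold. Heyl, Numbl, Hes6 and Nrarp lie to the right of the upper line, Hey1 to the left of the lower one, and Hes1 and Numb between them.

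Set against each other within a library, related genes took other shares of their joint counts, and such a comparison does not depend on how the libraries were scaled. Heyl took 89.6% of the counts of Heyl and Hey1 in Cipc-scko (exact binomial 95% interval 87.7 to 91.3), against 20.2% in Cipc-flox/flox (16.1 to 24.7). The ratio of Heyl to Hey1 counts was 34.0 times as high in Cipc-scko as in Cipc-flox/flox (24.5 to 47.7). Numbl took 90.8% of the counts of Numbl and Numb in Cipc-scko (89.6 to 91.9) and 54.3% in Cipc-flox/flox (50.8 to 57.8). That ratio was 8.25 times as high in Cipc-scko (6.76 to 10.1). Hes6 took 89.7% of the counts of Hes6 and Hes1 in Cipc-scko (88.5 to 90.8) and 72.8% in Cipc-flox/flox (70.0 to 75.5), a ratio 3.25 times as high (2.70 to 3.91). The gene with the higher ratio between the libraries was put first in each pair, so its larger share in Cipc-scko followed from that order. The shares restate the ratios of the members and add no further evidence. These shares take no account of gene length and do not compare between pairs.

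**Figure D3:**
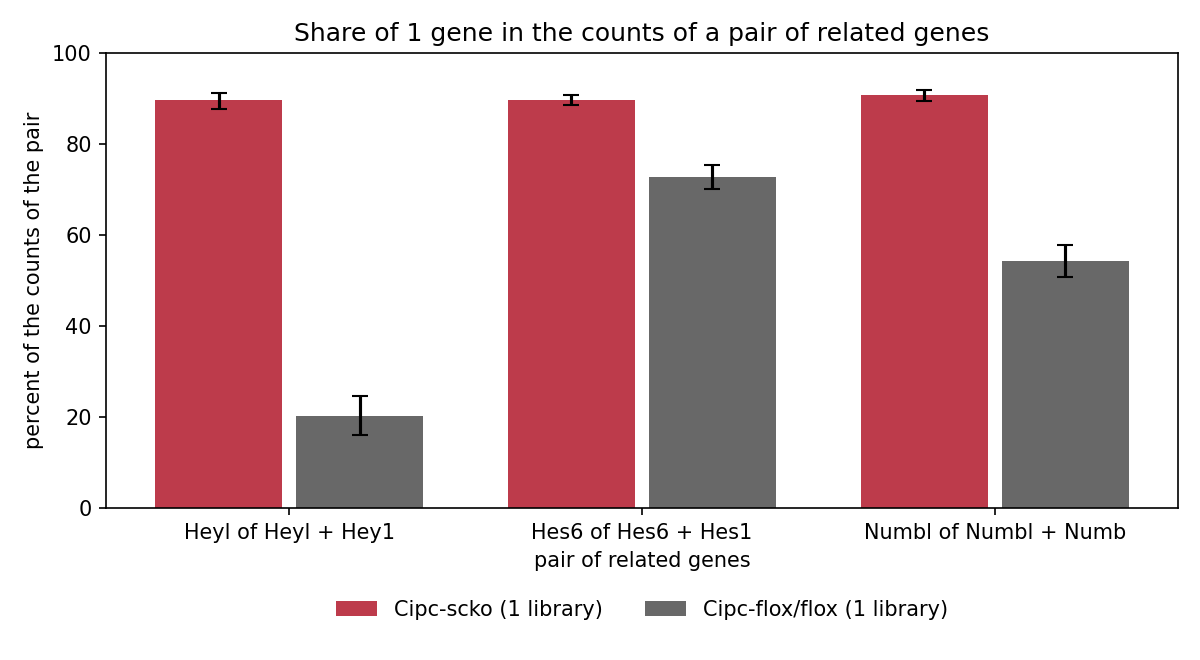
Percent of a pair's counts that belonged to the first gene of the pair, with Cipc-scko as red bars and Cipc-flox/flox as grey bars, 1 library each. Error bars are exact binomial 95% intervals. Heyl, Hes6 and Numbl hold 89.6%, 89.7% and 90.8% in Cipc-scko, and 20.2%, 72.8% and 54.3% in Cipc-flox/flox.

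Levels of different genes compare only per length, and the deposited FPKM, in which counts are divided by gene length and library total, was used first. In Cipc-scko the order was Hes6 (40.9 FPKM), Heyl (11.7), Numbl (10.5), Hes1 (6.21), Hey1 (1.53), Numb (1.40) and Nrarp (1.08). Hey1 and Numb, and Numb and Nrarp, had overlapping counting intervals. In Cipc-flox/flox the order was Hes6 (12.8 FPKM), Hes1 (6.32), Hey1 (3.76), Numb (2.27), Numbl (2.06), Heyl (0.841) and Nrarp (0.456). There Numb and Numbl, and Heyl and Nrarp, overlapped. Hes6 led and Nrarp came last in both libraries.

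The length behind the deposited FPKM can be read back from the counts, and it bears on that order. For 5 of the 7 members it equalled, to the base, the summed length of all distinct annotated exons, with overlapping exons of different transcripts counted again. For Numb it was 9818 bases, although its merged exons cover 3917. For Hes6 it was 3781, against 1808 merged. FPKM therefore understates genes with many overlapping isoforms relative to a single-transcript gene such as Nrarp (2582 bases by either measure). Per kilobase of merged exons, Numbl came before Heyl in Cipc-scko, at 16.4 and 12.7 CPM per kilobase, and Numb before Hey1, at 3.69 and 2.31. In Cipc-flox/flox Numb and Hey1 stood at 5.43 and 5.16 CPM per kilobase. Hes6 stayed first at 89.6 CPM per kilobase in Cipc-scko, against 25.6 in Cipc-flox/flox. Whether Numbl or Numb was the higher of that pair in Cipc-flox/flox depended on the length: Numb was 1.10 times Numbl by FPKM and 1.86 times by merged exons, but Numbl was 1.53 times Numb per longest coding transcript. In Cipc-scko Numbl was the higher under all 3 lengths, by 4.43 to 12.6 times. Heyl exceeded Hey1 in Cipc-scko by 4.61 to 7.64 times, and Hey1 exceeded Heyl in Cipc-flox/flox by 4.47 to 7.41 times, under the same lengths.

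**Figure D4:**
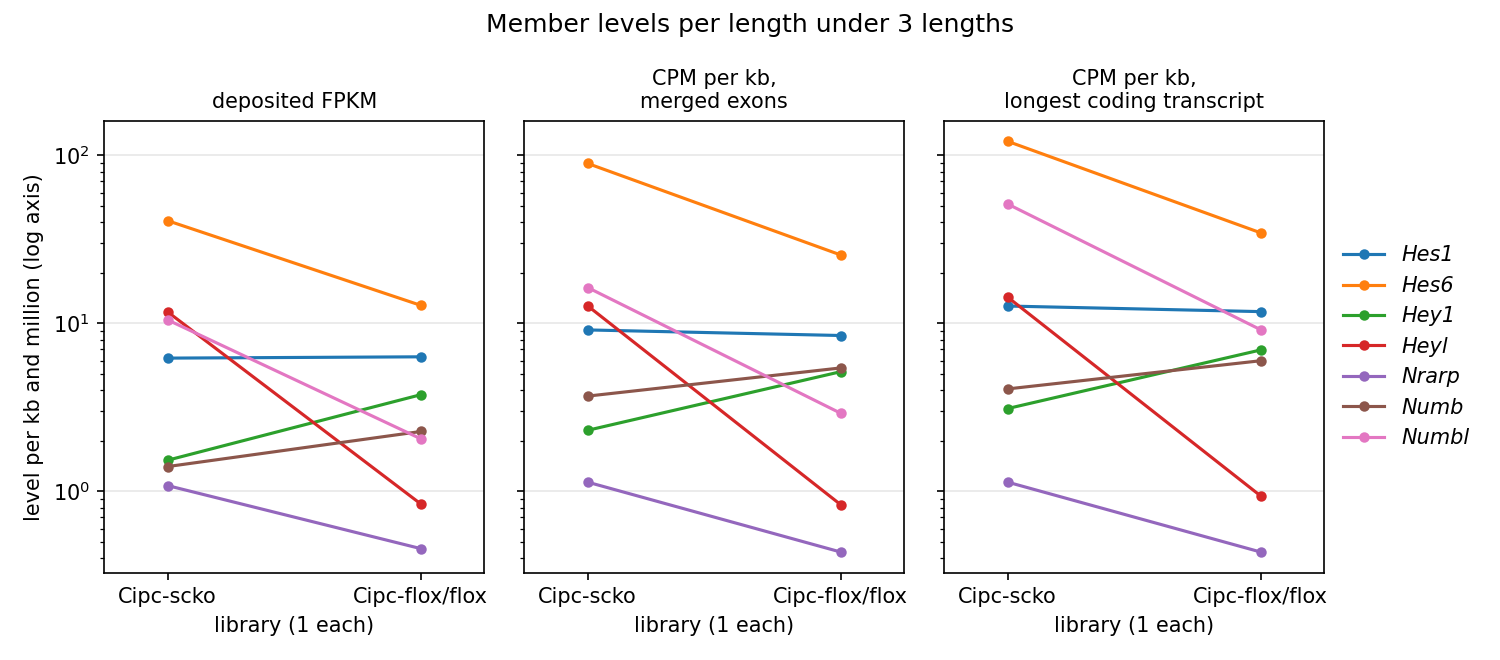
Level of each of the 7 genes (log axis) in Cipc-scko, left, and Cipc-flox/flox, right, in the deposited FPKM and in CPM per kilobase of merged exons or of the longest coding transcript, 1 library each. The lines of Heyl and Hey1 cross in all 3 panels, Hes6 is highest and Nrarp lowest throughout, and Numbl moves from below Numb to above it in Cipc-flox/flox in the last panel.

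Of the summed FPKM of the 4 Hes and Hey genes, Hes6 made up 67.8% in Cipc-scko, against 54.0% in Cipc-flox/flox. Heyl made up 19.4% in Cipc-scko, against 3.54% in Cipc-flox/flox. Hes1 made up 10.3% in Cipc-scko, against 26.6% in Cipc-flox/flox, although its own level was nearly equal. Hey1 made up 2.54% in Cipc-scko, against 15.8% in Cipc-flox/flox. These shares also depend on the length. Per kilobase of merged exons, Hes6 made up 78.8% in Cipc-scko, against 63.9% in Cipc-flox/flox. By that length Heyl made up 11.2% in Cipc-scko, against 2.08% in Cipc-flox/flox. Hes1 made up 8.03% in Cipc-scko, against 21.2% in Cipc-flox/flox. Per longest coding transcript, Heyl made up 9.46% and Hes1 8.37% in Cipc-scko.

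The genes whose levels lay nearest to the highest and the lowest member by ratio were found by distance in log2(CPM + 0.5) over the 2 libraries, among 12203 protein-coding genes. For Heyl they included Psrc1 (64.3 CPM in Cipc-scko, against 4.43 CPM in Cipc-flox/flox) and G0s2 (75.6 CPM in Cipc-scko, against 4.02 CPM in Cipc-flox/flox). Psrc1 encodes a protein of the mitotic spindle. For Hey1 they were Pdgfd (7.35 CPM in Cipc-scko, against 16.8 CPM in Cipc-flox/flox), 2410004B18Rik and Gcc2. With 2 libraries, nearness means only a like pair of levels.

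Other genes of the pathway were described by 8 lists, chosen with earlier results of these data known. Over all lists together, 22 of 93 filtered genes stood higher in Cipc-scko, 9 stood lower and the rest were not called (median log2 ratio 0.07). These are 23.7% higher and 9.68% lower, against 21.2% and 15.9% of all filtered genes, so the share of higher genes is near the background. Each list below is to be read against the same shares. Among receptors and ligands, 5 of 8 filtered genes were higher and 0 lower, and the median was 1.96. Scaling by total counts gave 1 lower gene, and the median was 1.44 without the filter and 0.87 with FPKM and a pseudocount of 1. The ligand Dll1 had 795 counts in Cipc-scko, against 31 counts in Cipc-flox/flox (log2 ratio 4.73, 4.24 to 5.32). The ligand Jag1 stood at 19.2 CPM in Cipc-scko, against 3.66 CPM in Cipc-flox/flox. The receptor Notch1 stood at 146 CPM in Cipc-scko, against 34.8 CPM in Cipc-flox/flox, and Notch3 at 262 CPM in Cipc-scko, against 72.6 CPM in Cipc-flox/flox. Egfl7, a secreted Notch modulator named after its values were seen, was the other higher gene (log2 ratio 2.36). Notch2, at 156 CPM in Cipc-scko, against 190.5 CPM in Cipc-flox/flox, and the ligand Jag2 (log2 ratio -0.89) did not reach 2-fold.

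Receptor modifiers and proteases were mostly not called, with 3 of 17 higher, 1 lower and a median of 0.07. Psen2, a catalytic subunit of gamma-secretase, stood at 27.8 CPM in Cipc-scko, against 4.49 CPM in Cipc-flox/flox. Mib2, a ubiquitin ligase for Notch ligands, had a log2 ratio of 1.48, and Neurl1a, another, of 1.26. Lfng, the Fringe glycosyltransferase that tunes which ligand a receptor answers, was the lower gene, at 3.86 CPM in Cipc-scko, against 17.5 CPM in Cipc-flox/flox. Aph1b (-0.86) did not reach 2-fold.

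In the nuclear complex, 2 of 16 genes were higher and 2 lower, with a median of 0.04. Rbpj, which brings the complex to DNA, stood at 137 CPM in Cipc-scko, against 52.3 CPM in Cipc-flox/flox (log2 ratio 1.39, 1.28 to 1.51). The co-activator Maml2 stood at 17.0 CPM in Cipc-scko, against 1.83 CPM in Cipc-flox/flox. The acetyltransferase Ep300 (-1.03) and L3mbtl3 (-1.04), a repressor partner of RBPJ, were the lower genes and sat near the 2-fold limit. Both calls ended with upper-quartile scaling. Co-repressors used by HES and HEY proteins included as many higher as lower genes, with 2 of 11 higher, 2 lower and a median of -0.06. Tle4, of the Groucho family, had 157 counts in Cipc-scko, against 7 counts in Cipc-flox/flox, and Tle6 had a log2 ratio of 1.36. Aes, a short Groucho relative, stood at 372 CPM in Cipc-scko, against 791 CPM in Cipc-flox/flox, and the deacetylase Sirt1 at 6.98 CPM in Cipc-scko, against 27.1 CPM in Cipc-flox/flox.

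Of 11 other genes known as Notch targets, 5 were higher and 1 lower, with a median of 0.79. The lower genes numbered 3 with scaling by total counts or with FPKM and a pseudocount of 0.1, and 2 with a pseudocount of 1. The higher genes were Col6a2 (5.83), Col6a1 (4.71), Col5a1 (2.83) and Notch3 (1.85) by log2 ratio, and Pax7, the factor that marks satellite cells, at 62.2 CPM in Cipc-scko, against 2.54 CPM in Cipc-flox/flox. Collagen V is known as a Notch target in quiescent mouse satellite cells. Col5a3, another collagen V gene of the list, was not called (0.79). Dtx4, of the Deltex family, was lower, at 19.6 CPM in Cipc-scko, against 81.1 CPM in Cipc-flox/flox, and Dtx2 (-0.94) did not reach 2-fold. The rest of the Hes family with values past the filter, Bhlhe40 (0.38) and Bhlhe41 (-0.72), were not called.

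Genes that HES or HEY proteins are known to repress were mostly higher in Cipc-scko. Among the 8 that passed the filter there were 5 higher genes and 1 lower gene. The median was 4.06. It was 3.40 with a filter of 5 CPM, 3.39 with a prior count of 5 and 1.5 with FPKM and a pseudocount of 1. Gata4 was the lowest both as fitted and at a floor of 3 counts, so that choice could not move the median. Myog, the driver of terminal muscle differentiation, had 44286 counts in Cipc-scko, against 53 counts in Cipc-flox/flox. Mef2c had a log2 ratio of 5.09, the cell cycle inhibitor Cdkn1c one of 4.80, and Myod1 one of 3.40, beside Dll1, which is in both lists. Myf5, at 66.2 CPM in Cipc-scko, against 61.6 CPM in Cipc-flox/flox, was not called. Gata4 had 0 counts in Cipc-scko, against 750 counts in Cipc-flox/flox. The upper limit of its log2 ratio was -7.59.

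Partners of NUMB in endocytosis and cell polarity were mostly not called, with 18 of 22 not called, 2 higher, 2 lower and a median of -0.07. The polarity gene Pard6g stood at 28.8 CPM in Cipc-scko, against 3.72 CPM in Cipc-flox/flox, and Itsn1, an endocytic scaffold, had a log2 ratio of 1.48. Prkci, the atypical protein kinase C that phosphorylates NUMB, was lower (-1.13), as was Pard6b (-2.88). The adaptor subunit Ap2a2 (-0.77) did not reach 2-fold.

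**Figure D5:**
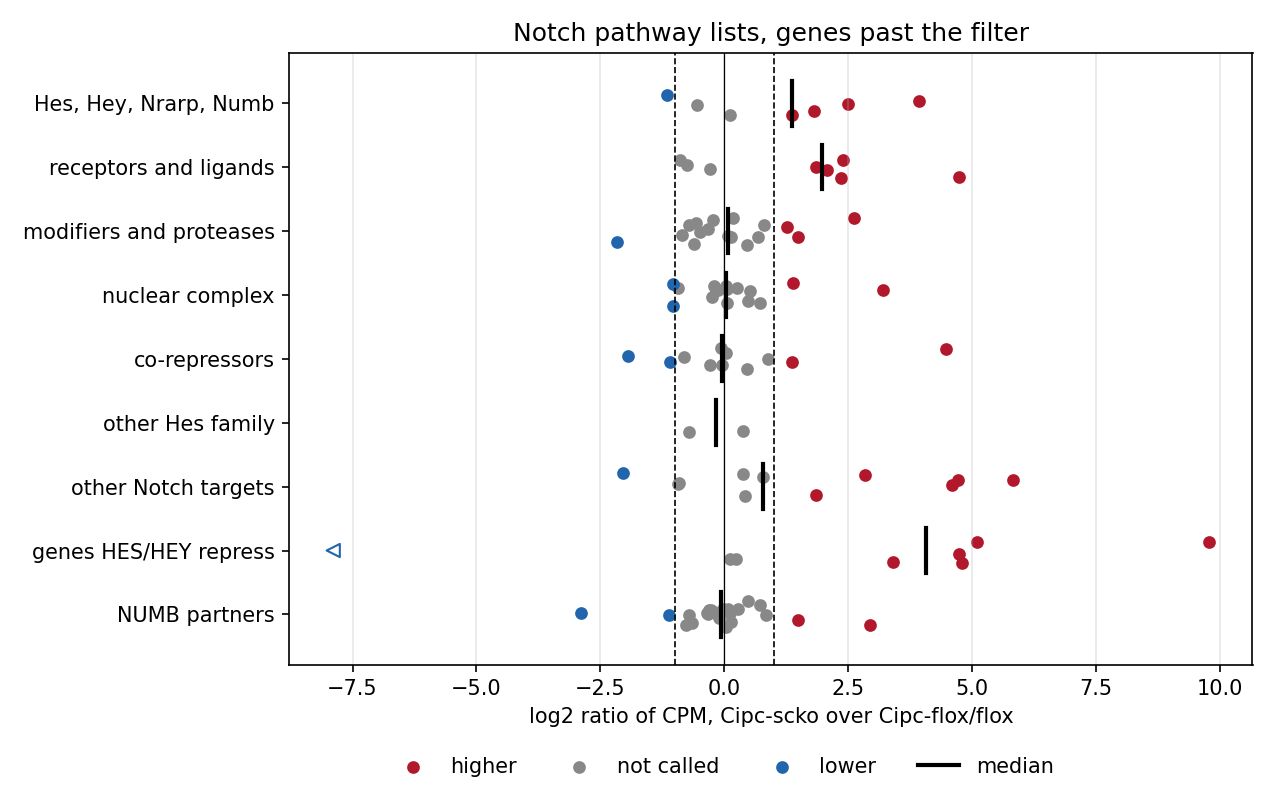
Log2 ratio of CPM, Cipc-scko over Cipc-flox/flox, for genes past the filter in each list, 1 point per gene, coloured by call, with the list's median as a black bar and dashed lines at 2-fold. The open triangle is Gata4, drawn with a floor of 3 counts in place of its 0 in Cipc-scko. The medians of the receptors and ligands (1.96) and of the genes that HES or HEY proteins repress (4.06) lie to the right of the upper line, and those of the nuclear complex, co-repressors and NUMB partners lie near 0.

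Markers of other cells and of differentiated muscle also differed between the libraries, in both directions, and their part in the results was not tested. Of 7 smooth muscle and pericyte markers past the filter, 6 were higher in Cipc-scko and 1 was lower. Their summed level was 14198 CPM in Cipc-scko, against 663 CPM in Cipc-flox/flox. Sums of markers take in every listed marker with values, also those that did not pass the filter. Acta2 alone made up most of that sum, at 12432 CPM in Cipc-scko, against 513 CPM in Cipc-flox/flox. Mcam stood at 152 CPM in Cipc-scko, against 0.709 CPM in Cipc-flox/flox, and Cspg4 at 0.436 CPM in Cipc-scko, against 29.0 CPM in Cipc-flox/flox, where Abcc9 was at 0. All 7 myofibre markers past the filter were higher, with a sum of 13651 CPM in Cipc-scko, against 13.5 CPM in Cipc-flox/flox. Myh7, Myh1 and Myh2 were at 0 in Cipc-flox/flox. Endothelial markers were low, with 2 of 2 past the filter higher and sums of 12.9 CPM in Cipc-scko, against 1.77 CPM in Cipc-flox/flox. Kdr had 112 counts in Cipc-scko, against 2 counts in Cipc-flox/flox. Egfl7, which is also in the list of receptors and ligands, had 75 counts in Cipc-scko, against 15 counts in Cipc-flox/flox. Below the filter, Cdh5 had 1 count in Cipc-scko and 2 counts in Cipc-flox/flox, Tek was at 0 in Cipc-scko and Pecam1 at 0 in Cipc-flox/flox. Satellite cell markers were present in both libraries, with 2 of 7 higher, 0 lower and sums of 3511 CPM in Cipc-scko, against 1945 CPM in Cipc-flox/flox. Myod1 was higher, at 1192 CPM in Cipc-scko, against 113 CPM in Cipc-flox/flox. Pax7 was higher too, at 62.2 CPM in Cipc-scko, against 2.54 CPM (43 counts) in Cipc-flox/flox. The other 5 were not called. Of 5 fibro-adipogenic markers 2 were higher and 2 lower (sums of 3031 CPM in Cipc-scko, against 1442 CPM in Cipc-flox/flox). The higher genes were the collagens Col1a1 and Col3a1, and Col3a1 made up most of the sum (2177 CPM in Cipc-scko, against 850 CPM in Cipc-flox/flox). The lower genes were Pdgfra (11 counts in Cipc-scko, against 147 in Cipc-flox/flox) and Dcn (1 count, against 142). Of 3 macrophage markers past the filter 1 was higher and 2 lower. Csf1r was the higher gene, with 37 counts in Cipc-scko, against 9 counts in Cipc-flox/flox, and Cd68 and Cd14 were the lower ones. The 4 macrophage markers with values summed to 6.17 CPM in Cipc-scko, against 47.3 CPM in Cipc-flox/flox. Both glial markers past the filter were lower. The 4 with values summed to 1.56 CPM in Cipc-scko, against 20.8 CPM in Cipc-flox/flox. The chromosome around a member can also be set beside it. Genes of chromosome 7, which carries Numbl, had a median log2 ratio 0.39 above that of all autosomal genes, and those of chromosome 4, which carries Heyl, one 0.22 above. For chromosome 3, which carries Hey1, the deviation was -0.13.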

How the data were processed

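Total RNA of labelled satellite cells was sequenced as 1 library per genotype. Per the submitters' processing notes, CASAVA, HISAT2 2.0.4, StringTie 1.3.0 and GRCm38 were used, with no roles given. The annotation release, counting tool, strand setting and filters were not given in the sources used here. Per the file headers, the authors deposited unnormalized counts of each Ensembl gene, and FPKM per library. FPKM are the counts rescaled by library total and a length, so they are no independent measurement.

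Symbols came from a separate list of gene names matched by Ensembl gene ID, which named 16116 of 16190 genes. Positions came from GENCODE vM21 (GRCm38). Counts were scaled with TMM (edgeR 4.0.16, R 4.3.3). The filter required 1 CPM or more in either library and 20 counts or more in all. Log2 ratios used a prior count of 0.5. Intervals were exact binomial (Clopper-Pearson, SciPy 1.17.1) on the split of a gene's counts, and intervals of paired ratios were exact conditional ones. No p-value was computed. Copies were searched with BLAST+ 2.17.0. Promoters came from RefSeq (GRCm38.p6).

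The members and lists were chosen with earlier results of these data known. Named genes were all members, the 2 highest and 2 lowest of each list at 5 CPM or more, set pathway genes, and 3 nearest genes, of which 1 is not reported here. Egfl7, Neurl1a, Pard6b, Col5a1, Col5a3, Pax7, Cdkn1c, Myod1 and the motif CAGCTG were chosen after values were seen. The pairs of related genes and their order were not part of the plan. Comparison of proteins was not run. Alternatives were other scalings (totals, DESeq2 1.42.0, upper quartile, TMM without mitochondrial and top 10 genes), filters, a prior count of 5, FPKM, fold limits and wider intervals. The per-length alternatives were chosen after seeing the data.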

Additional observations from a re-analysis of the deposited data

How the results depend on the processing

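No paired analysis was possible because each genotype has 1 library, and for the same reason no replicate could be left out. Heyl and Numbl kept their direction and call under all 13 alternatives (log2 ratio 2.79 to 3.97 and 1.91 to 2.53), and Hes6 lost its call only at a fold limit of 4. Scaling by total counts moved the median of all genes from 0.01 to -0.13. The count of higher members fell to 2 at a fold limit of 4. The count of lower members was 0 there, with FPKM and a pseudocount of 1, and with an assumed coefficient of variation of 0.4, because Hey1 was the only one. The members' median became 0.96 with a CPM of at least 5, which drops Nrarp, and 0.52 with FPKM and a pseudocount of 1. Over all genes, 1479 were higher with FPKM and a pseudocount of 1, a fold limit of 4 left 1608 higher and 860 lower, a limit of 1.5 gave 3318 lower, and the assumed variation left 1116 lower. Of the pathway genes together 21 were lower at a fold limit of 1.5, 4 at a limit of 4 and 5 with the assumed variation. The limits and the wider interval set these counts by construction. The median of the other Hes family turned to 0.0678 without a filter, which adds Hes7 at 4 counts in each library. With scaling by total counts the medians over all pathway genes, the modifiers and the nuclear complex, all near 0, turned to -0.07, -0.06 and -0.09. Ranks per length, out of 7, moved as follows with merged exons: in Cipc-scko Numbl 2, Heyl 3, Numb 5 and Hey1 6, and in Cipc-flox/flox Numb 3 and Hey1 4. With the longest coding transcript, ranks in Cipc-scko were again 2, 3, 5 and 6, and those in Cipc-flox/flox were Numbl 3, Hey1 4 and Numb 5. Depth limits Nrarp most, with 19 counts in Cipc-flox/flox.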
